A study of Mus musculus with 8 samples.

Results

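Open chromatin at the clustered histone genes was examined in mouse spermatogonia. The members were the ATAC-seq peaks to which the deposited peak table assigns a gene whose symbol begins with Hist1h, Hist2h, Hist3h or Hist4h. They numbered 427 of 328733 peaks, and they lay in 76 of the 87144 regions formed by merging overlapping peaks of all libraries. The large cluster on chromosome 13 held 58 of these regions in 2 blocks. Block 1 spanned 341 kb (chr13:21709938-22051383, 24 regions) and block 2 spanned 423 kb (chr13:23521785-23944829, 34 regions). The other 18 regions lay at Hist1h2al, apart on chromosome 13 (3 regions), at the Hist2 genes on chromosome 3 (7), near Hist4h4 on chromosome 6 (2) and at the Hist3 genes on chromosome 11 (6). All coordinates are of mm10 (GRCm38).

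Clustered histone genes encode the core histones H2A, H2B, H3 and H4 and the linker histone H1, which package DNA into nucleosomes. Most of them are transcribed during DNA replication, as many short genes without introns that lie in pairs or groups, and their transcripts end in a stem-loop in place of a poly(A) tail. Their promoters are known to carry elements particular to each histone class. The cluster also holds genes known for their use in male germ cells: Hist1h2ba and Hist1h2aa encode the testis histones TH2B and TH2A, Hist1h1t encodes the testis linker histone H1t, and Hist1h1a encodes a linker histone abundant in spermatogonia.

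The cells were germ cells sorted for eGFP from neonatal mice carrying PIWIL2-eGFP, a transgene in which the Piwil2 promoter drives eGFP in germ cells. All mice received WIN 18,446, which blocks the synthesis of retinoic acid (RA), for 7 days from 2 dpp. The 0 h mice were then collected, and the others received RA at 9 dpp and were collected 18, 48 or 120 h later, so 0 h had neither the injection nor the time that followed it, and age rises with hours after RA. Each timepoint had 2 libraries, each from the testes of 1 mouse. The background is C57BL/6 x 129s4/SvJae by the labels and C57BL/6 x SJL by the methods, and the 100000 cells per replicate of the labels differ from the methods as well. A peak within 1000 bp of the gene start was found in both libraries of every timepoint for at least 11 of 12 germ cell marker genes, for 3 to 6 of 8 Sertoli cell markers, for 1 to 2 of 7 Leydig and peritubular markers and for 0 of 4 blood and endothelial markers. Sertoli markers were at 6 at 0 h and at 3 to 4 later, and the part of other cells in the results was not tested.

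The promoters of 6 genes show the letters that the histone classes share and the genes on which the results turn. The sequences are from RefSeq (GRCm38.p6), 5′ to 3′ on the strand of the gene, and end at the base before its start. Capitals mark matches on either strand to CCAAT, to TATAAA and, by class, to ATTTGCAT (H2A and H2B), AAACACA (H1) or GGTCCG (H4), so that a match on the other strand reads as the reverse complement. Hist1h2ba (chr13:23934157-23934406, minus strand) is the testis H2B gene. Hist1h1a (chr13:23763418-23763667, plus) and Hist1h1d (chr13:23554782-23555031, plus) are linker histone genes, and Hist1h4k (chr13:21750554-21750803, minus) and Hist1h4d (chr13:23581318-23581567, plus) are H4 genes, shown as pairs whose peaks changed differently. Hist1h2ae (chr13:23571221-23571399, minus) is shown with the 179 bases that separate it from the divergent Hist1h2bg. The region over these bases had no peak called at 120 h, although a region beside it did.
Hist1h2ba: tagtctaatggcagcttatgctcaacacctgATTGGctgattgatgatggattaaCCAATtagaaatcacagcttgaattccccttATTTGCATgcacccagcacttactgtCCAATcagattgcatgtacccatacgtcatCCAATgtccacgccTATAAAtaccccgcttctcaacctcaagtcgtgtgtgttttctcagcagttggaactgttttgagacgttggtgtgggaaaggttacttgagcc
Hist1h1a: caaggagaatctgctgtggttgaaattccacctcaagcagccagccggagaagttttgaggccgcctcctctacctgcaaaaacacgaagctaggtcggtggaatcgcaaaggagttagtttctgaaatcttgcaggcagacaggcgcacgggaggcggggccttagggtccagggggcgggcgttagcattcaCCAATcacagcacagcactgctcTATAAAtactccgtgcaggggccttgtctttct
Hist1h1d: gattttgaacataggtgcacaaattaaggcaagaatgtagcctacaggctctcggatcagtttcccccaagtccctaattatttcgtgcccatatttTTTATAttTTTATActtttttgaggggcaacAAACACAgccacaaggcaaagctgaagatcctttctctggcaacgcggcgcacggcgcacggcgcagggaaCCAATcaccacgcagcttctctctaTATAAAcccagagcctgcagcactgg
Hist1h4k: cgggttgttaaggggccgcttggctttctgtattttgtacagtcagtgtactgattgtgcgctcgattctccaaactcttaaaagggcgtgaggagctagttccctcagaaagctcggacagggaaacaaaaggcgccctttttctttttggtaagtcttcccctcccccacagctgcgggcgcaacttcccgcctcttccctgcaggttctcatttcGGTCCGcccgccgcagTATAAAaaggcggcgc
Hist1h4d: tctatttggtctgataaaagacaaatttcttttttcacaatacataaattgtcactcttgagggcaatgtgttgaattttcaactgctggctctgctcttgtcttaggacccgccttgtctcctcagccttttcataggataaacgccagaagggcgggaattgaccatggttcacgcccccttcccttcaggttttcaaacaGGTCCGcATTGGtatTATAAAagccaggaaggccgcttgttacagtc
Hist1h2ae: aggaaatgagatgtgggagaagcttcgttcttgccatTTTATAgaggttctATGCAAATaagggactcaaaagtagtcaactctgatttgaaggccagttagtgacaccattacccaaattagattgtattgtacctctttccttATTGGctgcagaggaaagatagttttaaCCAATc

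Promoter windows (250 bases before to 50 after the start) were at hand for 62 of the 70 clustered histone genes of RefSeq. CCAAT, the letters bound by the factor NF-Y, was found in every H1, H2A, H2B and H3 window (6, 18, 16 and 10) and in 3 of 12 H4 windows, against 37.4% of all 32851 windows. The letters TATAAA, bound by the general factor TBP, were found in 35 of the 62 (56.5%) against 13.6% of all windows. ATTTGCAT, the octamer bound by POU factors such as the product of Pou2f1, was found in 7 of 18 H2A and 6 of 16 H2B windows and in 0 windows of the other classes, against 1.74% of all. AAACACA was found in 5 of 6 H1 windows, all except that of Hist1h1a, against 7.18% of all windows. GGTCCG, taken from the H4 element bound by the product of Hinfp, was found in 11 of 12 H4 windows and in 8.25% of all, and TTTNNCGC, letters of the E2F site, in 19 of 62 (30.6%) against 5.17%. Matches to different motifs overlapped in 1 of the 62 windows. Genes without a peak at their start held TATAAA in 5 of 18 windows, and genes with a start peak in all 8 libraries in 24 of 32; both kinds held CCAAT in most windows (14 of 18 and 28 of 32). Windows of divergent H2A and H2B genes overlap and can hold the same matches, so these counts are not independent. These matches describe the letters and are not sites of measured binding.

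**Figure D1:**
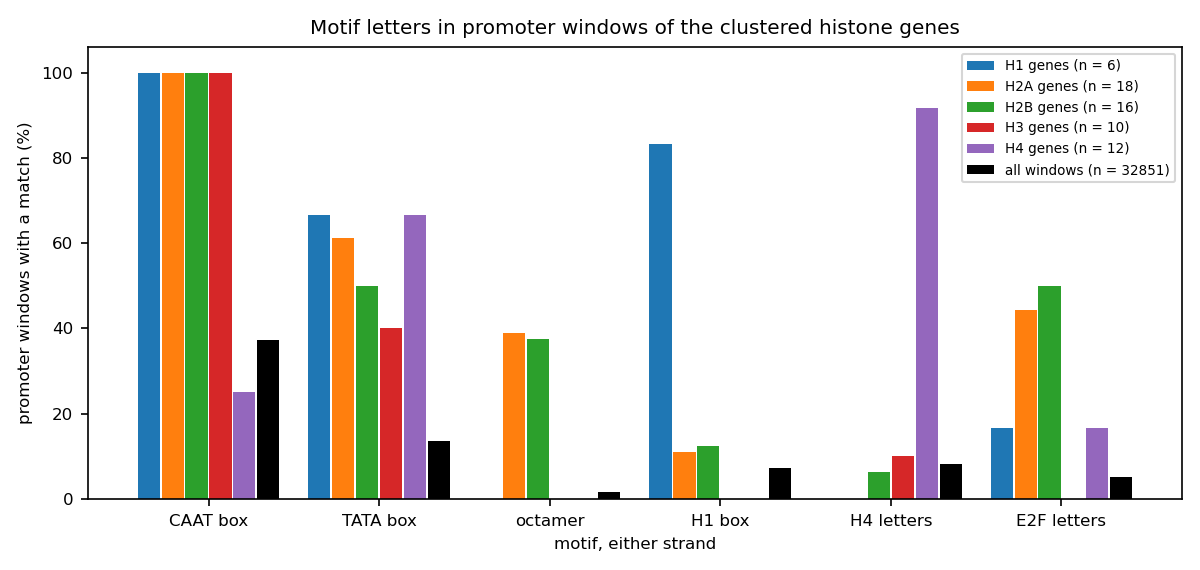
Share of promoter windows (percent) that hold each motif on either strand, for the genes of each histone class and for all 32851 windows (black). The CAAT box is in every window of 4 classes, the H1 box stands highest in H1 (5 of 6), the H4 letters in H4 (11 of 12), and the octamer appears in H2A and H2B among the histone classes.

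The question of the timecourse is how accessible chromatin changes when spermatogonia differentiate after RA. At 0 h, 62 of the 76 histone regions had a peak in both libraries, and 40, 40 and 38 did at 18, 48 and 120 h. Such a region is called counted at that timepoint, and 64 histone regions were counted at 1 or more timepoints. Of these, 34 were counted at all 4 timepoints, which is 53.1%, whereas 25.3% of all 61310 counted regions were. Gene starts in general were counted at all 4 timepoints in 60.9% of 14735 regions, and those at histone gene starts in 25 of 38. A further 19 histone regions (29.7%) were counted at 0 h only, against 49.8% of all regions and 20.7% of gene start regions. The 38 counted regions at histone gene starts were at all 4 timepoints in 65.8% and at 0 h only in 15.8%, and of the 26 counted away from them 9 were at all 4 and 13 at 0 h only. Of the 76 regions, 57.9% overlapped a CpG island, against 18.1% of all regions and 70.6% of all regions at a gene start. Among the 42 regions at a histone gene start the share was 88.1%. Of the 19 regions at 0 h only, 13 lay away from histone gene starts and 6 at them. Without replicate 2 of 120 h, the library with the fewest peaks (24643), 9 regions were counted at 0 h only. When each library was cut to its 24643 highest peaks, 5 were. Under this cut, 12857 of the 27890 counted regions of the whole series were at all 4 timepoints, so the background moved as well. The share of all regions at 0 h only was not counted under either setting.

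Block 1 had 13 of 21 counted regions at all 4 timepoints and block 2 had 14 of 28; each had 7 at 0 h only. Outside the cluster, 4 of 5 counted regions on chromosome 11, 2 of 7 on chromosome 3 and 1 of 1 on chromosome 6 were counted at all 4 timepoints, and 0 of 2 at Hist1h2al.

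**Figure D2:**
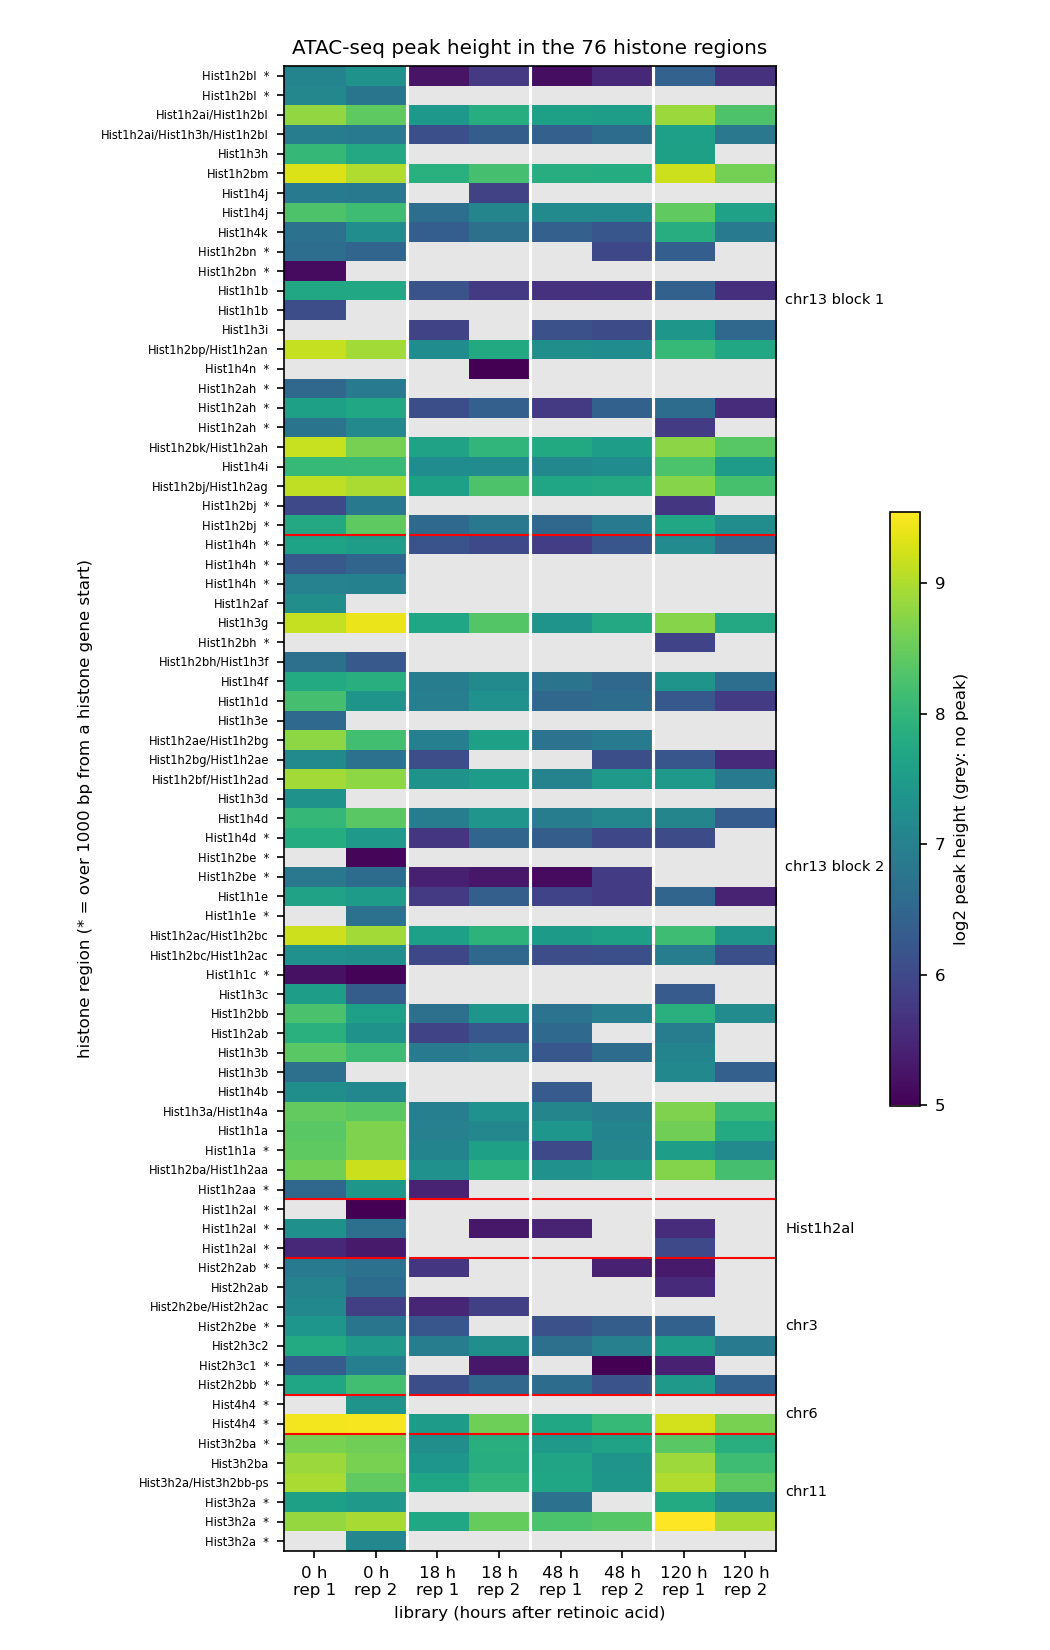
Peak height (log2 of the deposited signal, colour) in each of the 76 histone regions (rows, in order along each cluster) and 8 libraries (columns); grey is no peak, and an asterisk marks a region with no peak within 1000 bp of a histone gene start. The columns of 18 and 48 h are darker than those of 0 h in nearly every row, and 62, 40, 40 and 38 rows have a peak in both libraries of 0, 18, 48 and 120 h.

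By gene, 49 of the 70 had a peak within 1000 bp of the start in at least 1 library and 35 had one in all 8. A start peak in all 8 libraries was found for 3 of 6 H1 genes, 9 of 20 H2A, 12 of 19 H2B, 5 of 12 H3 and 6 of 13 H4 genes. Divergent H2A and H2B genes share their start peak, so these counts are not independent. The annotated start of Hist1h2be lies at the Hist1h1e region, so its start peaks were those of that region. In block 1, 13 of 24 genes had a start peak in all 8 libraries and 9 had none, and in block 2 these were 18 and 4 of 31. On chromosome 3, 1 of 10 genes (Hist2h3c2) had a start peak in all 8, and 6 had none.

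Near-identical copies limit what unique reads can show, because the authors kept reads with a unique match. For each gene, the share of 42-base windows within 250 bp of the start that occur more than once in the genome was counted. Reads were sequenced in pairs but windows were counted singly, so the mate of a read was not taken into account. The median share was 32.4% for the 21 genes with no start peak, 14.9% for the 14 genes with a peak in 1 to 7 libraries and 24.6% for the 35 with a peak in all 8. It was over 50% for 9 of the 21 and for 1 of the 35, Hist2h3c2 (90.9%). The start peak of Hist2h3c2 lay outside the 250 bp in which windows were counted, with summits a median 919 bp downstream of the start. Hist1h2bq and Hist1h2ao, with 100% of their windows repeated, and Hist1h4m, with 90.9%, are among the 6 genes with no assigned peak in the table. For such genes, closed chromatin and a lack of unique reads cannot be told apart.

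The testis linker histone gene Hist1h1t is different in this respect. It had 0% of its windows repeated and no assigned peak in any of the 8 libraries. Hist1h1c, another linker histone gene, had 15% of its windows repeated and no start peak either. Peaks farther away were assigned to it in every library, and the region for which it is the nearest histone gene, 10028 bp upstream, reached 37 and 33 (0 h), near the lowest signal of any peak (24). Hist1h4c, an H4 gene with 24.1% of its windows repeated, also had no assigned peak.

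Hist1h2ba and Hist1h2aa, the divergent testis H2B and H2A genes, shared 1 region (chr13:23933344-23934844) with no CpG island and a peak in all 8 libraries. Their windows are nearly all unique (0.652% and 0% repeated). Peak height, the coverage at the summit in the deposited table after equal tag numbers per library, was 384 and 581 (0 h), 157 and 239 (18 h), 157 and 177 (48 h) and 416 and 294 (120 h). Both libraries of 18 and 48 h were below both of 0 h, and 120 h overlapped 0 h. The log2 change was -1.29 ± 0.37 (SE, n = 2 against 2) at 18 h with an adjusted p of 0.00126 (limma, Benjamini-Hochberg over all 15536 regions with a peak in every library, as for all adjusted p-values here), -1.50 at 48 h (0.000154 by limma) and -0.43 at 120 h (0.341 by limma). From 48 to 120 h it was 1.07 (limma, adjusted p = 0.0265). The SE on this scale was the same in every member region, so these p-values do not measure the spread at this region.

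Such falls were general. On the deposited scale, 30 of the 34 histone regions that had a peak in every library were lower at 18 h than at 0 h, and 0 were higher, while 92.3% of all 15536 regions were lower and 0.296% higher. At 48 h, 31 were lower and 0 higher (all regions: 93.3% and 0.328%), and at 120 h 12 were lower and 0 higher (44.8% and 0.882%). From 48 to 120 h, 0 were lower and 10 higher (0.18% and 23.7%). The counts of members follow the background in each comparison. In limma, 30, 31 and 14 members had an unadjusted p under 0.05 in the lower direction against 0 h, 0 had one in the higher direction, and 0 had one in the lower direction between 48 and 120 h. Without replicate 1 of 18 h, 13 members were lower at 18 h. Between 48 and 120 h, the count of 10 higher became 0 without either library of 48 h or without replicate 1 of 120 h, and 23 without replicate 2 of 120 h.

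The medians of the 15536 regions show the same general shift in signal, with 224 and 270 (0 h), 91 and 116 (18 h), 86 and 102 (48 h) and 166 and 106 (120 h). Whether fewer open cells or less signal per cell lies behind it cannot be told apart in bulk samples, and the part of library quality was not tested. Libraries of the same timepoint differed as well, with 39551 and 24643 peaks in replicates 1 and 2 of 120 h. The 34 histone regions stood above these medians in every library, with medians of 322.5 and 339 (0 h), 125.5 and 160.5 (18 h), 132.5 and 136.5 (48 h) and 250.5 and 156.5 (120 h). The median histone region lay between the 63.3rd and the 75th percentile of all regions. The median of all gene start regions lay between the 58.3rd and the 66th, and in replicate 2 of 120 h it was above that of the histone regions (160 against 156.5). The 7 regions outside the chromosome 13 cluster stood highest, with medians of 168 to 473 over the 8 libraries. Of these, the regions 3761 bp from Hist4h4, 8444 bp from Hist2h2bb, 7075 bp from Hist3h2a and 10031 bp from Hist3h2ba lay away from histone gene starts. Genes such as H2afj, Fcgr1, Trim17 and Rnf187 are also assigned to them, so these medians are not those of histone gene starts alone.

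Among the histone regions with a peak in every library, the order at 0 h was led by the Hist4h4 region (chr6:136807855-136808709), with 708 and 716. It lies 3761 bp upstream of Hist4h4 and at the start of H2afj, an unlinked H2A variant gene, and Hist4h4 itself had no start peak. Hist1h3g (568 and 678), an H3 gene, Hist1h2bm (631 and 511), an H2B gene, and the divergent pairs Hist1h2ac/Hist1h2bc (591 and 481) and Hist1h2bj/Hist1h2ag (554 and 504) came next. Neighbours among these 4 overlapped in height, but both libraries of Hist1h3g were above both of Hist1h2bj/Hist1h2ag. The lowest in this order were Hist1h1e (196 and 183), the region of Hist1h2bc/Hist1h2ac at 473 bp (158 and 153) and a region 5951 bp downstream of the Hist1h2bl start (133 and 162). Hist1h4k (105 and 150) and the region at 474 bp of Hist1h2ai, next to Hist1h3h and Hist1h2bl (122 and 116), came last.

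To see which histone regions moved otherwise than the rest, each library was centred on its median over the 15536 regions. On this relative scale, 0 of 34 histone regions were lower and 0 higher at 18 h (all regions: 0.225% and 1.25%), and at an unadjusted p under 0.05 in limma 1 was lower and 5 higher. At 48 h, 0 were lower and 2 higher (1.51% and 3.26%), and in limma 3 had an unadjusted p under 0.05 in the lower direction. The higher ones were the region at 474 bp of Hist1h2ai (0.99, limma adjusted p = 0.0137) and a region 7075 bp downstream of the Hist3h2a start (0.81, limma adjusted p = 0.0407). The count of 2 became 1 without replicate 1 of 0 h, and 0 without replicate 2 of 0 h or without either library of 48 h. At 18 h, 1 region was higher without replicate 1 of 0 h.

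At 120 h against 0 h, 6 of the 34 histone regions were lower and 10 higher on the relative scale, where 15.8% of all regions were lower and 23% higher. Among gene start regions in general, 8.42% were lower and 29.6% higher, and among the 25 histone regions with a peak of any library within 1000 bp of a histone gene start 5 were lower and 9 higher. The median summit of 24 of these lay within 1000 bp, and of these 24, which leave out the Hist1h1b region, 4 were lower and 9 higher. The median relative change of the 34 was 0.33, of the 25 at histone gene starts 0.46 (0.49 for the 24), of all gene start regions 0.32 and of all regions 0.14 (log2). Counts in this comparison depended on single libraries. The 6 lower became 0 without replicate 1 of 0 h and 1 without replicate 2 of 120 h, and the 10 higher became 3 without replicate 2 of 0 h, 6 without replicate 1 of 120 h and 4 without replicate 2 of 120 h. With libraries centred on gene start regions in place of all regions, 8 were lower and 3 higher. This centring lowers the relative change of all regions alike. The shares of all regions called under these alternatives are not given. The counts therefore show only how far the member counts move with the setting.

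The higher regions at 120 h were in block 1 (6), in block 2 (1) and on chromosome 11 (3). Hist1h4k, an H4 gene whose promoter is shown above, had heights of 105 and 150 (0 h), 82 and 102 (18 h), 84 and 74 (48 h) and 227 and 117 (120 h). Both libraries of 120 h were above those of 18 and 48 h and overlapped 0 h, while the medians of all regions at 120 h stayed below 0 h. The relative change from 0 to 120 h was 1.27 ± 0.22 (SE, n = 2 against 2, limma adjusted p = 0.00126), and on the deposited scale it was 0.38 (limma adjusted p = 0.414).

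The region at 474 bp of Hist1h2ai (chr13:21716723-21717157) followed the same course, with 122 and 116 (0 h), 69 and 81 (18 h), 84 and 97 (48 h) and 189 and 113 (120 h). Its relative change at 120 h was 1.19 ± 0.20 (SE, limma adjusted p = 0.00114). The region next to it, at the starts of Hist1h2ai and Hist1h2bl, was taller, with 451 and 343 (0 h), 172 and 227 (18 h), 191 and 188 (48 h) and 464 and 310 (120 h), and rose by 0.84 in relative height (limma adjusted p = 0.014). Heights at 120 h overlapped those of 0 h in both regions. The other higher regions of block 1 were Hist1h2bm (0.64), Hist1h4j (0.70) and Hist1h4i (0.70), the last 2 being H4 genes.

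On chromosome 11, the region 7075 bp downstream of Hist3h2a, to which Trim17 is also assigned, had 455 and 493 (0 h), 212 and 353 (18 h), 308 and 325 (48 h) and 748 and 493 (120 h). It was the region with the largest height of any member, and its relative change at 120 h was 1.25 ± 0.21 (SE, limma adjusted p = 0.001). The starts of Hist3h2a with the pseudogene Hist3h2bb-ps (0.89) and of Hist3h2ba (0.65) also rose in relative height. The regions of Hist1h4k, of Hist1h2ai at 474 bp and of Hist3h2a at 7075 bp stayed past the threshold under each of the 12 alternatives tried for them.

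In block 2, the higher region was that of Hist1h3a and Hist1h4a (chr13:23760990-23762709), an H3 and an H4 gene, with 349 and 336 (0 h), 125 and 157 (18 h), 134 and 123 (48 h) and 408 and 267 (120 h). Heights at 120 h enclosed those of 0 h and were above those of 18 and 48 h. Its relative change was 0.84 from 0 to 120 h (limma adjusted p = 0.00879) and 0.86 from 48 to 120 h (limma adjusted p = 0.0239). From 48 to 120 h, 2 members were lower and 1 higher on the relative scale (all regions: 7.45% and 9.47%). Without either library of 48 h or without replicate 2 of 120 h these counts were 0 and 0, and without replicate 1 of 120 h they were 1 and 1.

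**Figure D3:**
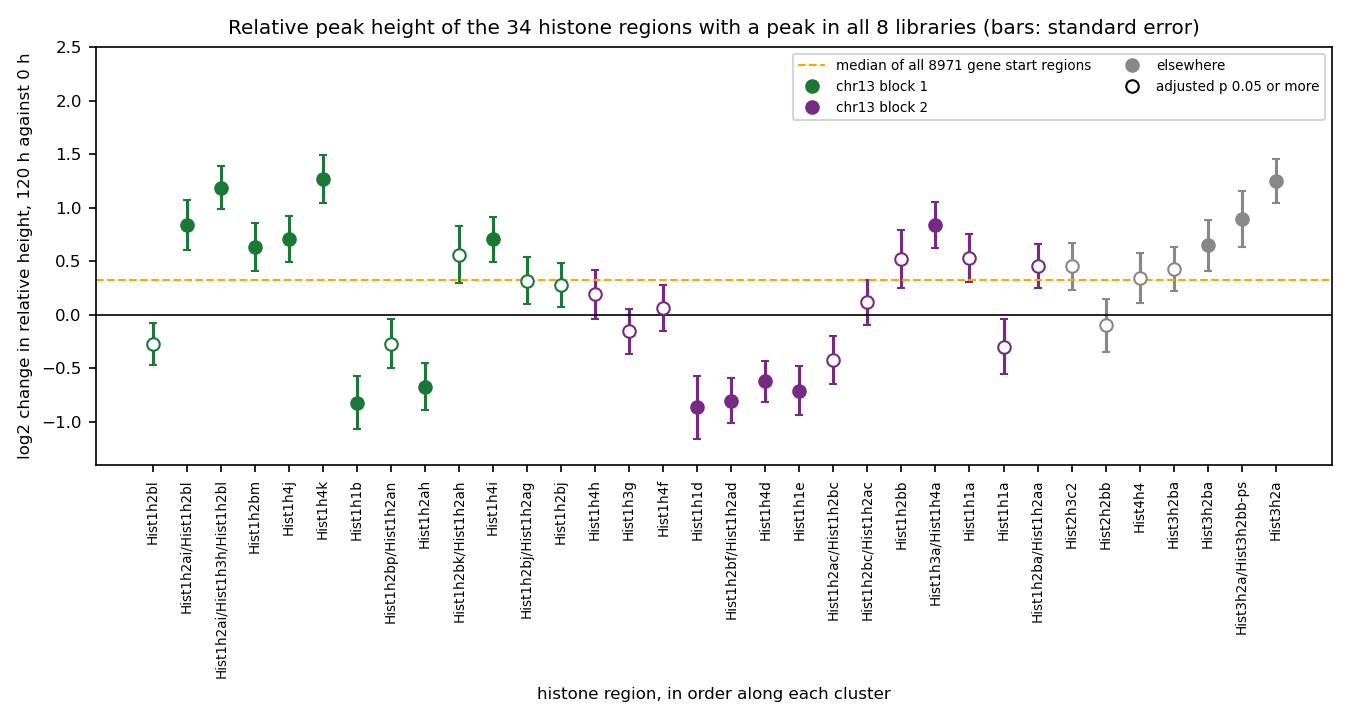
Log2 change in relative peak height from 0 to 120 h (y) of the 34 histone regions with a peak in all 8 libraries, in order along each cluster (x), with the SE as bars; filled points have a limma adjusted p under 0.05 and the dashed line is the median of all gene start regions (0.32). Of the filled points, 6 lie below 0, of which 4 are neighbours in block 2 (Hist1h1d to Hist1h1e), and 10 lie above 0.

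The lower regions at 120 h held 3 linker histone genes and 3 other regions. Hist1h1d had heights of 297 and 163 (0 h), 123 and 157 (18 h), 93 and 98 (48 h) and 76 and 56 (120 h). It was lowest at 120 h, where both libraries were below all others, although the medians of all regions rose between 48 and 120 h in both libraries of 120 h. Its relative change was -0.86 ± 0.29 (SE, limma adjusted p = 0.0327) from 0 to 120 h and -1.05 (limma adjusted p = 0.0333) from 48 to 120 h. On the deposited scale it was -1.75 from 0 to 120 h (limma adjusted p = 2.47e-05).

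Hist1h1e had 196 and 183 (0 h), 55 and 83 (18 h), 60 and 56 (48 h) and 89 and 44 (120 h), and fell by 0.71 in relative height (limma adjusted p = 0.027). The region of Hist1h1b (chr13:21779088-21780130) had 211 and 212 (0 h), 72 and 55 (18 h), 50 and 51 (48 h) and 85 and 49 (120 h), and its relative change was -0.82 (limma adjusted p = 0.0194). Both libraries of 120 h were below both of 0 h and overlapped 48 h in these regions. The Hist1h1b region lies over the far end of the gene, 1034 bp downstream of its start, and the start itself had a peak in 1 library (67 at 0 h).

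Hist1h1a behaved otherwise. Its start region had 336 and 408 (0 h), 126 and 138 (18 h), 168 and 133 (48 h) and 376 and 221 (120 h), so that 120 h overlapped 0 h and was above 18 and 48 h. Its relative change at 120 h was 0.53 ± 0.22 (SE, limma adjusted p = 0.0759), which missed the threshold. Of the 3 H1 genes with a start peak in all 8 libraries, Hist1h1d and Hist1h1e were thus lower at 120 h and Hist1h1a was not called; the Hist1h1b region, also lower, had its summits a median 1034 bp beyond the start. The 13 H2B regions had 1 lower and 5 higher (median 0.52), the 10 H2A regions 1 and 3 (0.39), the 4 H3 regions 0 and 2 (0.65) and the 6 H4 regions 1 and 4 (0.70). Regions with genes of several classes count in each, so the classes share regions, and the difference between classes was not tested.

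Of the 3 other lower regions, 2 lay between the H1 genes Hist1h1d and Hist1h1e in block 2. Hist1h4d had 261 and 336 (0 h), 121 and 165 (18 h), 122 and 138 (48 h) and 135 and 80 (120 h). Its relative change was -0.62 from 0 to 120 h (limma adjusted p = 0.0224) and -0.82 from 48 to 120 h (limma adjusted p = 0.022). The divergent pair Hist1h2bf/Hist1h2ad had 483 and 438 (0 h), 161 and 181 (18 h), 131 and 176 (48 h) and 175 and 116 (120 h), with a relative change of -0.80 (limma adjusted p = 0.0108). In both regions 120 h lay below 0 h and overlapped 48 h. In block 1, a region 6704 bp downstream of the Hist1h2ah start had 192 and 211 (0 h), 68 and 84 (18 h), 55 and 85 (48 h) and 97 and 48 (120 h), with a relative change of -0.67 (limma adjusted p = 0.0268).

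The region between the divergent starts of Hist1h2ae and Hist1h2bg, whose sequence is shown above, had 437 and 288 (0 h), 124 and 191 (18 h) and 106 and 119 (48 h), and no peak in either library of 120 h. Another region of these genes, at 464 bp, had a peak in both libraries of 0 h (143 and 104) and of 120 h (74 and 47). It had a peak in 1 library of 18 h (67) and 1 of 48 h (68). By gene, Hist1h2ae and Hist1h2bg thus had a start peak in all 8 libraries. Of the windows around the starts of Hist1h2ae and Hist1h2bg, 9.57% and 32.6% were repeated. A region 12636 bp downstream of the annotated Hist1h2be start had 113 and 98 (0 h), 35 to 56 at 18 and 48 h and likewise no peak at 120 h. Without a peak the height at 120 h is unknown, and these regions did not enter the fit, which took regions with a peak in all 8 libraries.

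Along the chromosome, 67.9 kb of block 2 from Hist1h1d to Hist1h1e (chr13:23554870-23622739) held 11 histone regions, of which 8 were counted at 0 h and 5 at 120 h. All 4 that could be tested were lower at 120 h in relative height. This stretch was chosen after its values were seen, so that it has no test. On both sides of it the regions tested did not pass the threshold (Hist1h4f, 0.06, and Hist1h2ac/Hist1h2bc, -0.42). Over whole blocks, the median relative change at 120 h was 0.56 in block 1 (9 of 13 above 0), -0.05 in block 2 (7 of 14 above 0) and 0.45 elsewhere (6 of 7 above 0). The 7 elsewhere include regions away from histone gene starts, to which other genes are also assigned. When regions without a peak were given the lowest value of the library, so that 64 regions entered, the medians were -0.18 in block 1 and -0.60 in block 2. Of all 61310 counted regions, 49.8% were counted at 0 h only, and these also received lowest values at later timepoints. The median of all regions under this setting is not given, so these 2 medians do not set the blocks apart from other regions.

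**Figure D4:**
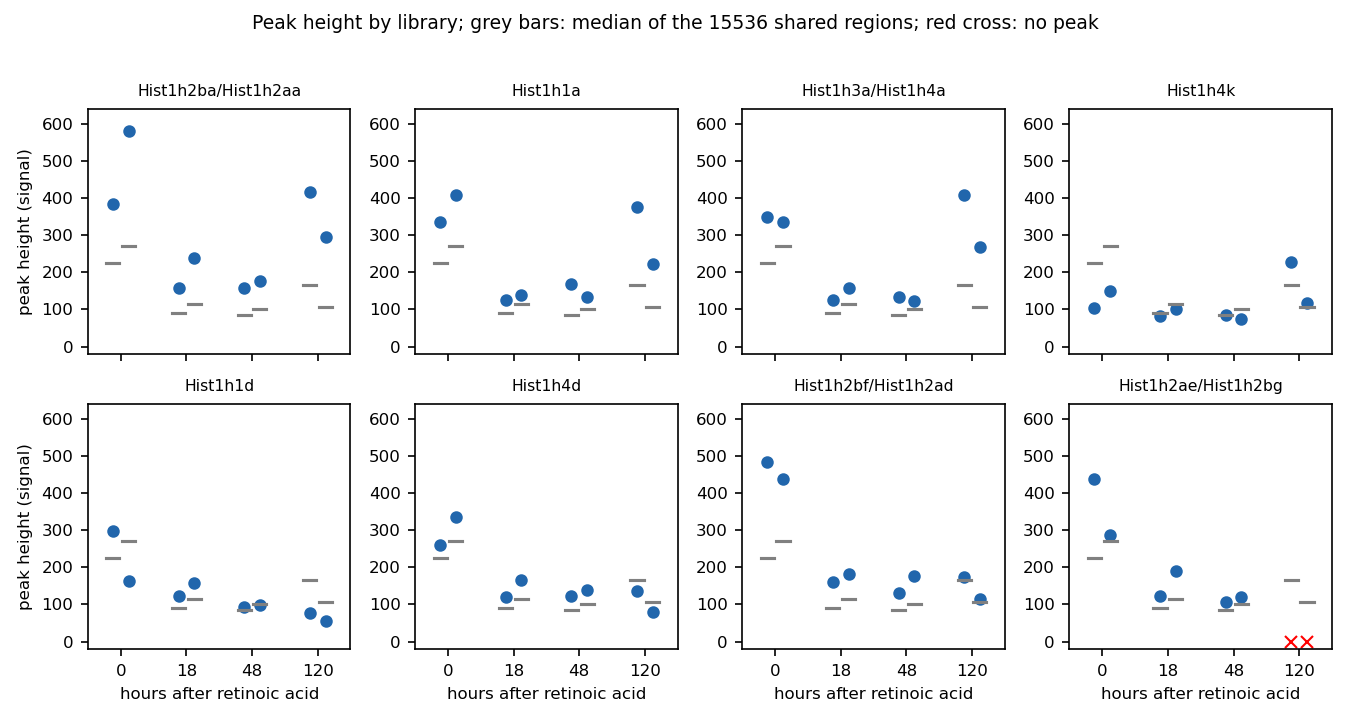
Peak height (deposited signal, y) at 0, 18, 48 and 120 h (x) in 8 histone regions, with 1 point per library; grey bars are the median of the 15536 shared regions in that library, and a red cross is no peak. Hist1h2ba/Hist1h2aa stays above the grey bars in all 8 libraries (157 to 581), Hist1h4k moves from below them at 0 h to above them at 120 h, and Hist1h1d (76 and 56) and Hist1h4d (135 and 80) lie below them at 120 h.

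A region 651 bp upstream of the Hist1h3i start, an H3 gene, had no peak at 0 h, a peak of 61 in 1 library of 18 h, and 70 and 66 (48 h) and 170 and 93 (120 h). A region 388 bp from the start of Hist1h3b, also an H3 gene, was the member counted at 120 h only, with 140 and 84 there and a peak in 1 library of 0 h (102). Of the regions counted at 0 h only, 5 reached the highest single values: Hist1h3h (261 and 214), Hist1h3c (188 and 81), a region 10114 bp from Hist1h2aa (93 and 170), a region 1505 bp from Hist1h2al (155 and 103) and Hist1h4b (153 and 139). They are ordered here by the higher of the 2 libraries; by the mean log2 of both, a region 4484 bp upstream of Hist1h4h (130 and 128, named after its values were seen) stood above the regions of Hist1h3c, Hist1h2al and Hist1h2aa, and it had no peak later. The regions of Hist1h3h, Hist1h3c, Hist1h4b and Hist1h2aa each had a peak in 1 later library, and the Hist1h2al region had one in 1 library of each later timepoint (39, 44 and 48). As a gene, Hist1h3h had a start peak in all 8 libraries, since the region at 474 bp of Hist1h2ai also lies near its start.

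On chromosome 3, Hist2h3c2, with 220 and 176 (0 h) and 182 and 116 (120 h), and a region 8444 bp from Hist2h2bb, with 207 and 287 (0 h) and 175 and 86 (120 h), had a peak in all 8 libraries, with relative changes of 0.45 and -0.10 at 120 h that did not pass the threshold. The starts of Hist2h2ab, with 131 and 97 (0 h), and of Hist2h2be/Hist2h2ac, with 139 and 58 (0 h), were not counted at 120 h. A region 10031 bp upstream of Hist3h2ba, to which Rnf187 is also assigned, had 395 and 379 (0 h) and 336 and 235 (120 h) (0.43, limma adjusted p = 0.113).

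Genes that act on clustered histone genes were compared as a list. Of 16 such factors, 15 had a start peak in all 8 libraries. The name of the other, Ars2, is assigned to no peak, and whether the gene is listed under another name was not checked. In relative height 11 of the 15 were higher and 0 lower at 120 h against 0 h, beside 29.6% and 8.42% of all gene start regions. The largest changes were those of Pou2f1 (1.13), which encodes OCT1, E2f1 (1.10), Cdk2 (1.09), the kinase partner of cyclin E, and Lsm11 (1.08), of the U7 snRNP that cleaves histone transcripts. Npat, the coactivator of histone genes, rose by 0.71 in relative height (limma adjusted p = 0.0157), and Slbp, which binds the stem-loop, had a change of 0.56 (limma adjusted p = 0.0504). On the list of 16 unlinked histone variant genes, 10 had a start peak in all 8 libraries, and 8 of these were higher and 0 lower, with H1f0 (1.32), H2bfm (1.15), H3f3a (1.09) and H1fx (1.05) leading. The region of H2afj (0.35, not past the threshold) is also the member region near Hist4h4, so it counts in both sets. On the deposited scale 0 factors were higher and 1 lower at 120 h (Eri1, -1.18, limma adjusted p = 0.00524), with a median change of -0.06, and 0 variant genes were higher and 0 lower, with a median of -0.10, so that the rise is relative to the falling medians. The median relative change was 0.83 for the factors and 0.79 for the variant genes, and 12 of 15 and 10 of 10 lay above the median of all gene start regions.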

How the data were processed

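ATAC-seq was analysed in 8 libraries of sorted germ cells, 2 at each of 4 timepoints. Per the labels and the methods, the authors aligned reads to mm10, removed duplicates and mitochondrial reads, reduced libraries to an equal number of tags, extended tags and called peaks per library without a control. The submitters' processing notes list bcl2fastq 2.20, BWA 0.7.12, SAMtools 0.0.19, bedtools 2.25.0 and MACS2 2.1.0. The deposited signal is the tag coverage at the summit of each peak (its height) or its mean over the peak. The depth behind a peak is known only as this signal, so no counting interval was given. The browser tracks were not used.

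Peaks overlapping by at least 1 bp were merged, and the highest value of a library was its height. Distances are those of the deposited table, with 1000 bp as the limit of a start. The log2 heights, as deposited or centred on each library's median, entered limma 3.58.1 under R 4.3.3 (4 groups, no block, Benjamini-Hochberg, threshold 0.05) in the 15536 regions where every library had a peak, and no pseudocount was needed. Python 3.11.15, numpy 2.4.6 and pandas 2.3.3 did the rest. The scripts were tested on simulated data. With 1 mouse per library, p-values rest on the spread between mice of a timepoint, pooled over the 4 timepoints and moderated across regions. On the deposited scale the SE was 0.37 in every member region, so those p-values follow the size of the change alone. RefSeq tables of GRCm38.p6 gave genes and promoters.

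The members and lists were chosen with earlier results of these data known. Named were the testis genes, regions outside the chromosome 13 cluster and regions past the threshold on the relative scale. Also named were the 5 highest and 5 lowest at 0 h among regions with a peak in every library, the 5 highest counted at 0 h only or 120 h only, and up to 4 genes of each list. Npat, Slbp, the neighbouring stretch in block 2, the Hist1h2ae and Hist1h2be regions and Hist1h3i were chosen after values were seen.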

Additional observations from a re-analysis of the deposited data

How the results depend on the processing

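With single libraries left out, the counts of histone regions lower than 0 h on the deposited scale ranged from 13 to 28 at 18 h, from 25 to 29 at 48 h and from 8 to 17 at 120 h, and the count higher at 120 h than at 48 h from 0 to 23. On the relative scale, counts higher than 0 h ranged from 0 to 1 at 18 h, from 0 to 1 at 48 h and from 3 to 13 at 120 h, counts lower at 120 h from 0 to 5, and counts lower and higher between 48 and 120 h each from 0 to 1. Regions counted at 0 h only ranged from 9 to 24, and at all 4 timepoints from 34 to 36. A lone sample was assumed to vary like the other groups. With the lowest value given to regions without a peak (64 regions), the counts lower on the deposited scale were 50, 53 and 32 at 18, 48 and 120 h against 0 h and 1 from 48 to 120 h, and the counts higher were 1 at 48 h, 1 at 120 h and 0 from 48 to 120 h; on the relative scale 2 were lower and 1 higher at 18 h, 1 lower and 1 higher at 48 h, and 10 lower and 5 higher at 120 h, as more regions entered. With the mean signal of the peak, 1 region was higher at 120 h than at 0 h on the deposited scale and 2 from 48 to 120 h on the relative scale. With the libraries of the timepoints compared only, 2 were higher from 48 to 120 h on the deposited scale, and with an intensity trend 5 were on the relative scale. With values of at least 50, 3 were lower at 120 h in relative height. Under quantile normalization 2 were lower and 3 higher at 120 h, and 0 and 0 from 48 to 120 h. Centring on gene start regions, chosen after seeing the data, gave 3 higher at 120 h, 0 at 48 h and 0 from 48 to 120 h. Among regions at histone gene starts only, 1 was higher at 48 h and 6 were counted at 0 h only, since fewer regions enter, and with equal numbers of highest peaks 5 were. The causes of the other differences were not tested. The shares of all regions under the same settings are not given for these counts, so they show only how far the member counts move.

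Replicate numbers gave no pairing: the correlations of same-numbered libraries ranged from -0.22 to 0.25 between timepoints. With the replicate block, 6 regions were higher from 48 to 120 h on the deposited scale in place of 10, and the counts at 120 h against 0 h on the relative scale were 6 and 10 again. The 21 calls of single regions on the relative scale kept their direction under each alternative tried for them, and 150 of 249 values stayed past the threshold. With 2 libraries per timepoint and heights known only where a peak was called, the 42 of 76 regions without a peak in at least 1 library did not enter the comparison of heights.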
